A study of Mus musculus with 45 samples.

Results

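The AP-1 transcription factor genes examined here were Fos, Fosb, Fosl1 and Fosl2 of the Fos family, Jun, Junb and Jund of the Jun family, and Atf3 and Maff, which encode related basic leucine zipper proteins. They were chosen by name, with earlier results of these data known, and all 9 were found among the 22080 genes of the deposited table, each as 1 probe set. Their levels were followed on Affymetrix Mouse Gene ST arrays of liver, kidney and brain, 45 in all, with 5 diet groups of 3 arrays in each tissue. All mice were male C57BL/6 animals, 7 weeks old at the start, with 8 mice in a diet group and tissues taken on day 43. The Control group received a diet without added cholesterol. The other groups shared a high-cholesterol diet (HCD) with 0.5% cholesterol, given alone, with 1% of a hydroalcoholic extract of Mexican Ganoderma lucidum from mushrooms grown without acetylsalicylic acid (HCD+Gl-1), with 1% of the extract from mushrooms whose substrate held 10 mM acetylsalicylic acid (HCD+Gl-2), or with 0.03 g simvastatin per 100 g of diet (HCD+Sim). By the study's methods, RNA from 4 mice of a group made pool A, RNA from the remaining 4 made pool B, and pool C mixed both, so 3 arrays stand for 2 separate pools of animals and the p-values measure the spread between these arrays.

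AP-1 is a dimer of leucine zipper proteins. Jun proteins can pair with each other or with Fos proteins, whereas Fos proteins need a partner, and the dimers bind short palindromic DNA elements. Many of the genes are immediate early genes: their transcripts are scarce in resting cells, rise within minutes of growth factors, stress or tissue handling without new protein synthesis, and decay quickly, and in liver they are known for their response to injury and regeneration and in neurons for their response to activity. Jund is usually expressed more steadily. In these tissue homogenates, a change in the number of cells of a type and a change in RNA per cell cannot be told apart.

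The promoters of Fos, Fosb, Jun, Junb and Atf3 are shown first, since these 5 members rose together in the kidney of mice given HCD+Gl-2. Each is the 250 bases that precede the RefSeq start site, 5′ to 3′ on the strand of the gene, in build GRCm38.p6. Capitals mark TGACG on either strand, TGACATCA, or TATAAA.
Fos, chr12:85473640-85473889, plus strand: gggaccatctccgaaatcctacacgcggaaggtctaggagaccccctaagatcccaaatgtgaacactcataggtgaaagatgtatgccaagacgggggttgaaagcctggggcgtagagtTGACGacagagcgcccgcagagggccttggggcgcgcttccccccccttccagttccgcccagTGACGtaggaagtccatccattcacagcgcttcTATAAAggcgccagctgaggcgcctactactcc
Fosb, chr7:19310046-19310295, minus strand: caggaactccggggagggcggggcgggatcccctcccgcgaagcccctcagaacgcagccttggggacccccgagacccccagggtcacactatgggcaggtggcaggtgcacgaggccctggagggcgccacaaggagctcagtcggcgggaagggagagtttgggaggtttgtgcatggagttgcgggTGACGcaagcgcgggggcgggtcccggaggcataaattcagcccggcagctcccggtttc
Jun, chr4:95052223-95052472, minus strand: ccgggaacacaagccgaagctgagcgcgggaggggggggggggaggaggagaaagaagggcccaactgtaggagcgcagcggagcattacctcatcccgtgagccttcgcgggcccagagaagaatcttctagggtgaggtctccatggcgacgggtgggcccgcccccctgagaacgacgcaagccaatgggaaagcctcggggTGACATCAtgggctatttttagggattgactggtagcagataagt
Junb, chr8:84978749-84978998, minus strand: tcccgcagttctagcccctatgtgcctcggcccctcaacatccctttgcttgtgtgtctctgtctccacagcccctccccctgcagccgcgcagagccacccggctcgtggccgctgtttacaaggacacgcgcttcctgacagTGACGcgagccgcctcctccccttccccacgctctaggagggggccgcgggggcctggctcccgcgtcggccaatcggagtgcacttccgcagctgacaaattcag
Atf3, chr1:191183334-191183583, minus strand: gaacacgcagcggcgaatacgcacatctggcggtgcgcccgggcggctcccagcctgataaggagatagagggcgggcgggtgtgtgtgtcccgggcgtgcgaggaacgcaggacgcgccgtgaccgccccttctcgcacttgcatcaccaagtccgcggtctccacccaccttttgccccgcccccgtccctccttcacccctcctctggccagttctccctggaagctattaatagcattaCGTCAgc

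The letters TGACG, the core of the element bound by CREB and ATF proteins, were found on one strand or the other in 4 of these 5 windows, all but that of Jun, and in 17.8% of all 32851 promoter windows of the RefSeq table. In Fos they began 129 and 66 bases before the start, in Junb 106, in Fosb 60, and in Atf3, on the opposite strand, 7 bases before it. The Jun window held TGACATCA, an AP-1-like element, 45 bases before its start, and 2.93% of all windows held it. The full palindrome TGACGTCA, which contains the shorter letters on both strands, was found in 1.55% of all windows and in none of the 5. The AP-1 letters TGANTCA, in 6.75% of all windows, and the CArG box of serum response factor, in 1.47%, were not found in the 5 either. TATAAA, in 12.4% of all windows, was found in that of Fos. The windows of Fosl2 and Jund held none of these motifs, and of the 3 starts listed for Maff 1 had no match, 1 had TGACGTCA from 29 bases before it and 1 had TGACATCA from 45 bases before it and the CREB core from 122. The table has entries for 8 of the 9 members, Fosl1 being named only. A match describes these letters and says nothing of binding.

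The tissue of each array was checked first, because 1 description field of the labels calls every sample brain. The summed level of 5 liver markers (the log2 of the summed linear values) was 15.64 to 15.76 in the liver arrays, above 13.43 to 13.58 in kidney and 11.24 to 12.77 in brain. That of 5 kidney markers was 15.12 to 15.24 in kidney and at most 8.28 elsewhere, and that of 5 brain markers was 14.26 to 14.55 in brain and at most 9.37 elsewhere, so the 3 tissues of the sample titles were borne out. In brain, pool C of the Control group stood apart, with 3.82% of genes outside the range of its pools A and B by over 0.5 on the log2 scale against at most 1.51% in the 14 other groups. Its summed striatum markers were at 11.98 against 10.87 and 10.22 in pools A and B, and its olfactory bulb markers at 9.69 against 11.15 and 11.51.

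In the plot of all members on all arrays, the highest values of Fos, Jun, Junb and Atf3 were on HCD+Gl-2 arrays of liver or kidney, and over the 15 brain arrays Fos spanned 7.11 to 7.59 and Jun 7.67 to 7.98. A gene was called changed at an absolute log2 difference over 0.7 with an adjusted p of at most 0.05, where every adjusted p is limma's moderated test with Benjamini-Hochberg adjustment over all 22080 genes.

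**Figure D1:**
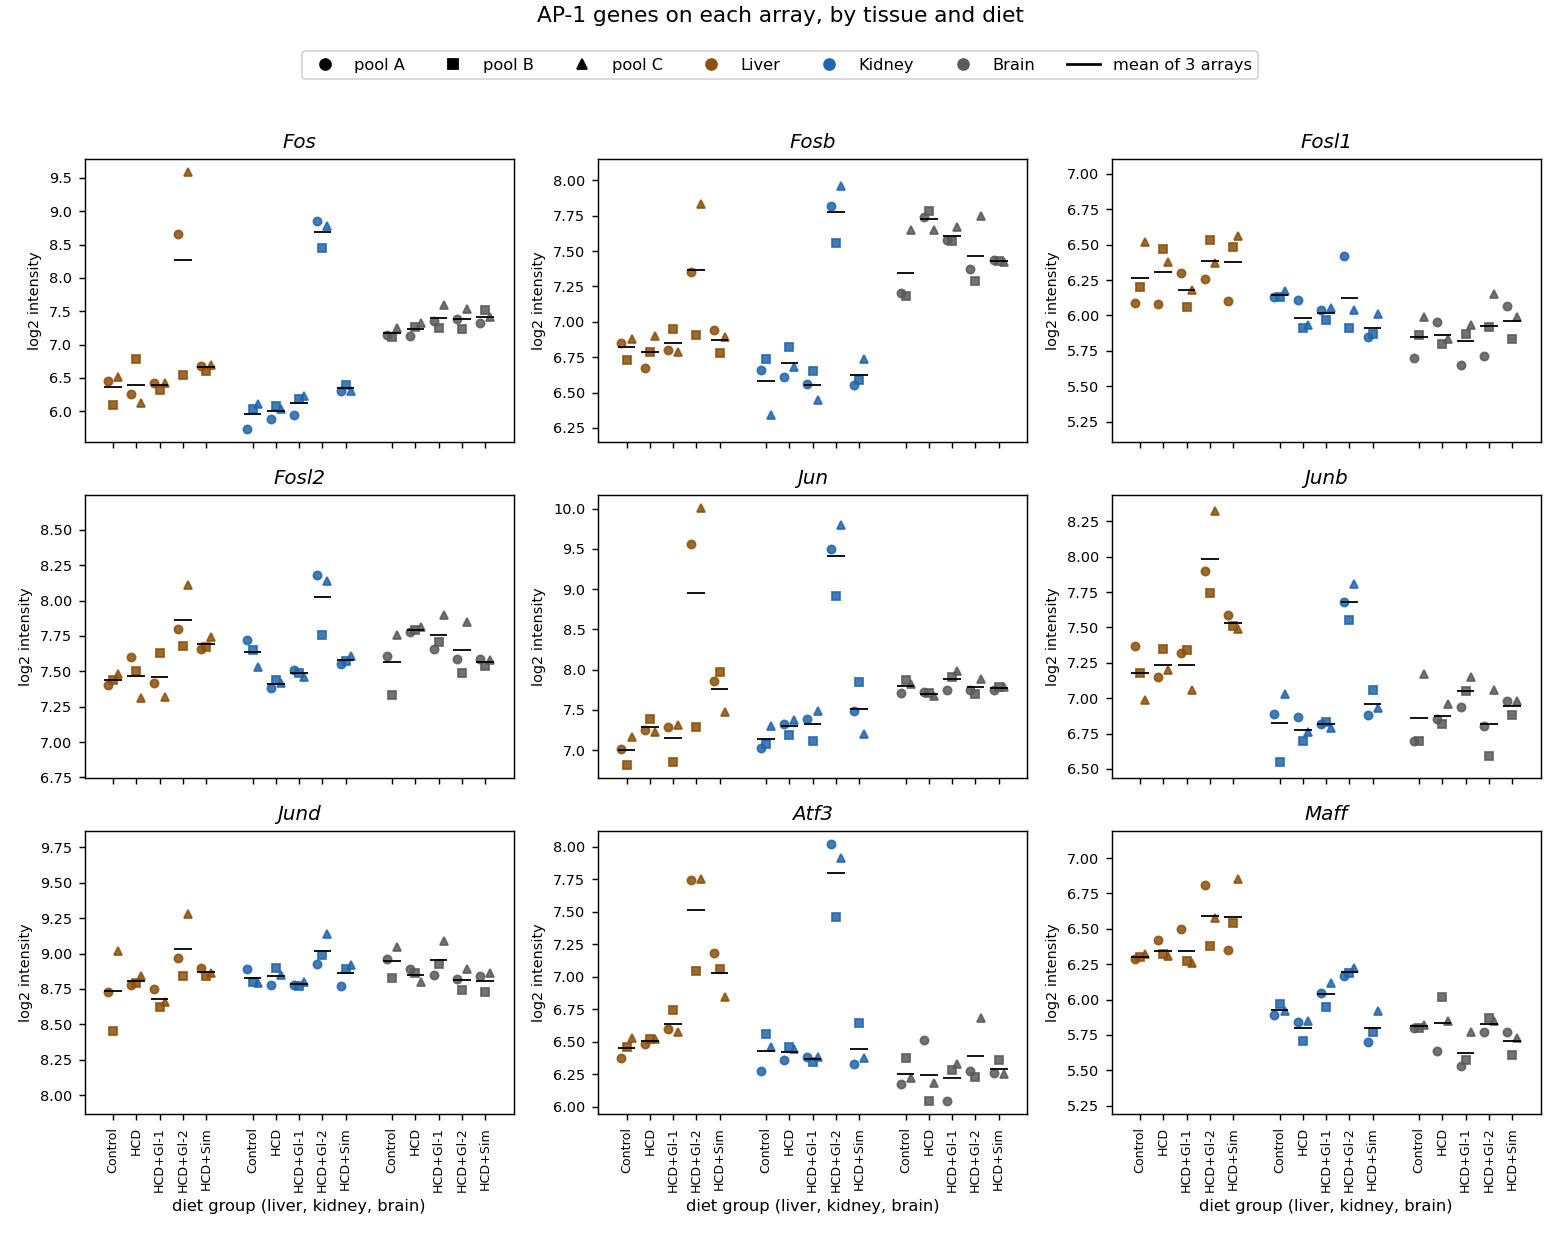
Log2 intensity of the 9 AP-1 genes on each of the 45 arrays, 1 panel per gene. The horizontal axis gives the diet groups in liver, kidney and brain, symbols mark pools A, B and C, and the line is the mean of 3 arrays. Fos reached 8.45 to 8.85 in kidney HCD+Gl-2, above 6.40 on any other kidney array, whereas in liver HCD+Gl-2 its pool B was at 6.55 beside 8.66 and 9.59.

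On the Control diet, the members were compared between tissues to show where each was high in mice given no added cholesterol, extract or simvastatin. Fos, the founding member of its family, was highest in brain, with a log2 level of 7.17 ± 0.07 (SD, n = 3 arrays), followed by liver at 6.36 ± 0.23 and kidney at 5.96 ± 0.20. The brain arrays of Fos did not overlap those of the other tissues, and it was called lower in kidney by a log2 difference of -1.20 ± 0.32 (SE, adjusted p = 0.00124) and in liver by -0.81 ± 0.32 (adjusted p = 0.0239). Liver and kidney were not called different, and their arrays overlapped (log2 difference 0.39, 95% interval -0.25 to 1.04). That interval rests on the spread shared over all groups, which for Fos was widest in liver HCD+Gl-2 (SD 1.56). Fosb, which encodes a Fos protein known to accumulate in neurons after repeated stimulation, had the same order on the log2 scale, with 7.34 ± 0.26 in brain, 6.82 ± 0.08 in liver and 6.58 ± 0.21 in kidney, and was called lower in kidney than in brain by -0.76 ± 0.14 (adjusted p = 9.43e-06). The calls depended on single arrays. Without Control pool B of liver neither Fos nor Jun was called between liver and brain, without pool B of brain only Fos and without pool C of brain only Jun, and between kidney and brain Fosb was not called without pool C of either tissue.

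Jun, the main transactivating partner of Fos proteins, was called lower in liver than in brain by a log2 difference of -0.81 ± 0.31 (adjusted p = 0.0219). It read 7.71, 7.87 and 7.82 in the brain pools A, B and C, 7.03, 7.08 and 7.30 in kidney and 7.01, 6.81 and 7.16 in liver. Kidney and liver overlapped, and both lay below brain.

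The 6 other members had no called difference between tissues on the Control diet. Maff, a small Maf protein without a transactivation domain, was higher in liver than in brain by a log2 difference of 0.49 ± 0.10 and than in kidney by 0.38 ± 0.10 (adjusted p = 3.56e-05 and 0.00167), both under the fold threshold, with no overlap between its liver and other arrays. In all, 2 of 9 members were called between liver and brain, where 32.7% of all genes were, 2 of 9 between kidney and brain against 30.0% of all genes, and 0 of 9 between liver and kidney, where 2 had an unadjusted p under 0.05 and 16.8% of all genes were called. Arrays did not overlap in 71.0% of all genes between liver and brain, 64.4% between kidney and brain and 56.4% between liver and kidney.

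With HCD+Gl-2, 5 of the members rose in kidney, and in each of them all 3 arrays lay above those of HCD. Arrays all above HCD were found in 8 of 9 members and in 11.4% of all genes. Against HCD alone, Fos rose 6.45-fold, Jun 4.32-fold, Atf3 2.59-fold and Junb 1.87-fold, and Fosb rose by a log2 difference of 1.07. Of all 9 members these 5 were called, whereas 0.335% of all genes were called in this comparison in either direction. The question was whether an extract from mushrooms grown with acetylsalicylic acid changed expression in mice on the cholesterol diet.

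Kidney Fos read 8.85, 8.45 and 8.78 on the log2 scale in the HCD+Gl-2 pools A, B and C and 5.89, 6.08 and 6.04 in the HCD pools. Every HCD+Gl-2 array was more than 2 log2 units above every HCD array, and the log2 difference was 2.69 ± 0.32 (SE, adjusted p = 2.65e-07). Fosb read 7.82, 7.56 and 7.96 against 6.61, 6.82 and 6.68, a log2 difference of 1.07 ± 0.14 (adjusted p = 1.93e-06). Fosl2, which encodes a Fos-related antigen, read 8.18, 7.76 and 8.14 against 7.38, 7.44 and 7.42. Its arrays did not overlap either, but the log2 difference of 0.61 ± 0.11 stayed under the fold threshold although the adjusted p was 0.000349. Fosl1, the other Fos-related antigen, overlapped between the groups, with 6.42, 5.91 and 6.04 against 6.11, 5.91 and 5.93 and an adjusted p of 0.87.

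Among the Jun genes of the kidney, Jun read 9.50, 8.92 and 9.80 on the log2 scale with HCD+Gl-2 and 7.32, 7.19 and 7.37 with HCD, a log2 difference of 2.11 ± 0.31 (adjusted p = 2.52e-05). Junb, which can restrain Jun activity, read 7.68, 7.55 and 7.81 against 6.87, 6.70 and 6.76, and its log2 difference was 0.91 ± 0.13 (adjusted p = 9.27e-06). In both genes the lowest HCD+Gl-2 array lay above the highest HCD array. Jund had the smallest difference of the 3 Jun genes, with 8.93, 8.99 and 9.14 against 8.78, 8.90 and 8.85 and a log2 difference of 0.18 (95% interval -0.01 to 0.37, adjusted p = 0.614). Atf3, a stress-induced gene of the ATF family whose protein pairs with Jun proteins and often represses, read 8.02, 7.46 and 7.91 against 6.36, 6.46 and 6.44, a log2 difference of 1.37 ± 0.14 (adjusted p = 1.19e-08). Maff read 6.17, 6.19 and 6.22 against 5.84, 5.71 and 5.85, with no overlap, a log2 difference of 0.40 ± 0.10 and an adjusted p of 0.0321, and it was not called because the difference was under 0.7.

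The kidney pattern was not tied to the choice of the HCD group as reference. In 8 of the 9 members, all but Fosl1, the 3 HCD+Gl-2 arrays lay above all 12 other kidney arrays, whereas 1.68% of all genes did so. The gap was narrow in Jund, Fosl2 and Maff. Their lowest HCD+Gl-2 arrays were at 8.93, 7.76 and 6.17, beside 8.92, 7.72 and 6.12 on the highest other array. Against HCD+Gl-1 the same 5 genes were called, with log2 differences up to 2.57 in Fos, beside 0.181% of all genes, and against Control the same 5 again, beside 0.217% of all genes. These comparisons share the HCD+Gl-2 arrays and are not independent of each other. Among the 12 kidney arrays of the other diets, Fos spanned 0.67 log2 units and Jun 0.82, so the spread of the remaining diets was small beside the HCD+Gl-2 difference, which was 2.69 in Fos and 2.11 in Jun.

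**Figure D2:**
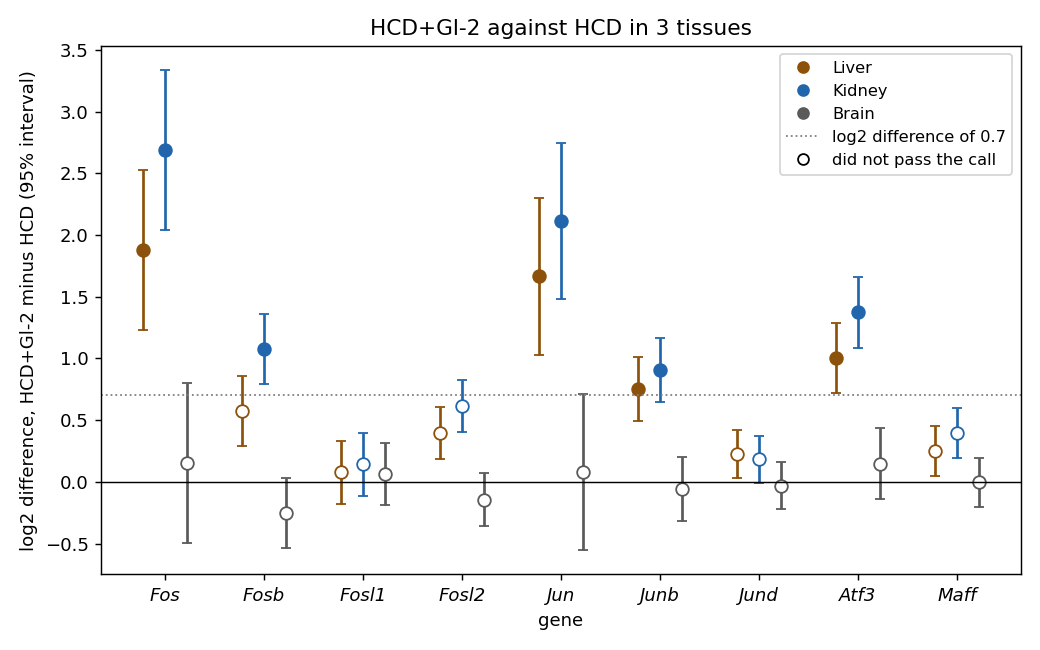
Log2 difference of HCD+Gl-2 minus HCD for the 9 genes (horizontal axis) in liver, kidney and brain, with 95% intervals from the limma fit, where filled points passed the call and the dotted line marks 0.7. Kidney Fos stands at 2.69 and Jun at 2.11, liver Fos at 1.88 and Jun at 1.67, and the 9 brain points lie between -0.26 and 0.15.

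In liver, HCD+Gl-2 gave a rise of Fos (3.68-fold), Jun (3.17-fold), Atf3 (2.00-fold) and Junb (1.68-fold) against HCD, but not on all arrays. The call took in 4 of the 9 members beside 0.303% of all genes. For Fos and Jun the rise rested on pools A and C: Fos was at 8.66 and 9.59 there and at 6.55 in pool B, within the HCD arrays at 6.26, 6.78 and 6.12, and Jun was at 9.56 and 10.01 with 7.29 in pool B, within the HCD arrays at 7.25, 7.39 and 7.22. The fitted log2 differences were 1.88 ± 0.32 in Fos (adjusted p = 0.000427) and 1.67 ± 0.31 in Jun (adjusted p = 0.00149). Junb and Atf3 were different in that pool B also lay above HCD. Junb read 7.90, 7.74 and 8.32 against 7.15, 7.35 and 7.20, a log2 difference of 0.75 ± 0.13 (adjusted p = 0.000419). Atf3 read 7.74, 7.04 and 7.75 against 6.48, 6.52 and 6.52, a log2 difference of 1.00 ± 0.14 (adjusted p = 2.98e-05).

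In liver, HCD+Gl-2 arrays all above HCD were found in 4 of 9 members and in 7.27% of all genes. Of the members of the liver that were not called, Fosb and Fosl2 had arrays that did not overlap with HCD. The lowest HCD+Gl-2 array of Fosb, at 6.91, lay just above its highest HCD array at 6.90. Fosb read 7.35, 6.91 and 7.83 against 6.67, 6.79 and 6.90, with a log2 difference of 0.58 ± 0.14 (adjusted p = 0.0198), and Fosl2 read 7.80, 7.68 and 8.11 against 7.60, 7.50 and 7.31, with a log2 difference of 0.39 ± 0.11 (adjusted p = 0.0394). Jund, Maff and Fosl1 overlapped, with log2 differences of 0.23, 0.25 and 0.08 and adjusted p-values of 0.287, 0.253 and 0.88. The median log2 difference of the 9 members was 0.58, where that of all genes was 0.01, and in kidney the 2 medians were 0.91 and 0.01.

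The liver calls depended on the fit. The same 4 genes were called against HCD+Gl-1 (0.172% of all genes) and against Control (0.584% of all genes), but only Junb had all 3 HCD+Gl-2 arrays above the 12 other liver arrays, which 0.367% of all genes did. When limma was fitted to the 6 arrays of HCD+Gl-2 and HCD alone, none of the 4 was called in liver (adjusted p = 0.41 in Fos, 0.423 in Jun, 0.164 in Junb and 0.153 in Atf3), whereas all 5 kidney calls stayed. On pools A and B alone, Atf3 was the 1 member called in liver, and without pool C of HCD+Gl-2 only Fos and Atf3 were called, with a log2 difference of 1.21 in Fos and of 1.14 in Jun, the latter with an adjusted p of 0.0505.

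The pools themselves were compared next, because pool C should lie near the mean of A and B. Over the 9 members and 15 groups, which makes 135 combinations, pool C lay outside the range of A and B by over 0.5 log2 units in 1, Fos in liver HCD+Gl-2. Its value of 9.59 was 1.64 log2 units above the level of 7.96 that an even mix of pools A and B would give. Jun of the same array was 1.18 and Fosb 0.68 log2 units above the mix, and the median over all genes was 0.02. In kidney HCD+Gl-2 the same differences were 0.12 in Fos and 0.56 in Jun. Over all genes of liver HCD+Gl-2, 0.621% lay outside the range of A and B by over 0.5.

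Pool B was the lowest of the HCD+Gl-2 pools in 8 of 9 members in liver, in 7 of 9 in kidney and in 7 of 9 in brain, against 34.3%, 34.9% and 34.0% of all genes. In the plot of single pools, other genes followed Fos and Jun in liver, with pool B near the HCD mean. Not all members did so, since Junb and Atf3 stood 0.50 and 0.53 log2 units above the HCD mean in that pool. Egr1, an immediate early zinc finger factor, was at 10.72, 6.98 and 11.16 on the log2 scale in the liver pools A, B and C of HCD+Gl-2 and at 10.73, 10.44 and 10.80 in the kidney pools. Dnajb1, a co-chaperone induced by heat shock, was at 9.53, 7.51 and 10.01 in liver and 9.15, 8.50 and 9.50 in kidney. The low liver pool B and the 3 raised kidney pools of Fos were thus also seen in these genes. Their part in the values of the members was not tested.

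**Figure D3:**
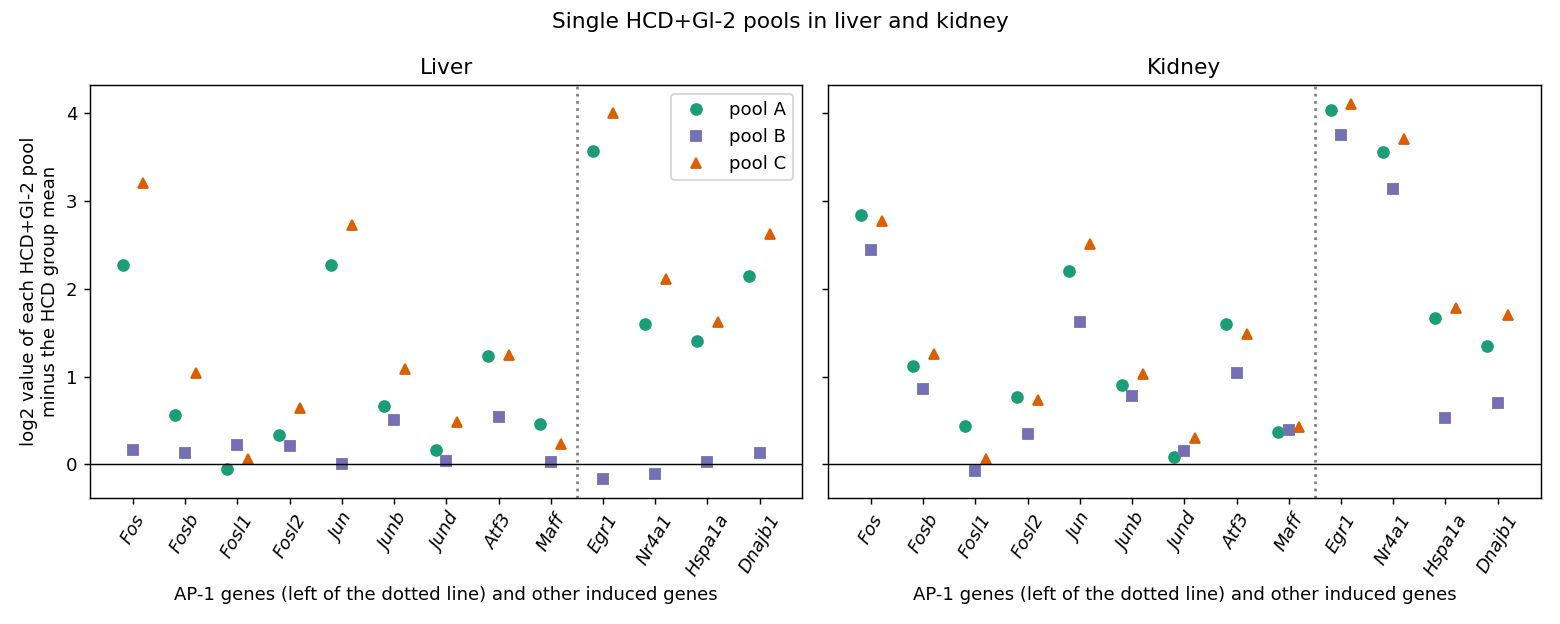
Log2 value of each HCD+Gl-2 pool minus the mean of the 3 HCD arrays (vertical axis) for the 9 AP-1 genes and, right of the dotted line, Egr1, Nr4a1, Hspa1a and Dnajb1, in liver and kidney. Liver pool B stands at 0.16 in Fos and near 0 in Jun, whereas kidney pool B stands at 2.45 in Fos and 1.63 in Jun.

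In brain, none of the 9 members was called with HCD+Gl-2 against HCD (0 of 9 by limma, 0 of 9 with an unadjusted p under 0.05, beside 0.0226% of all genes), and against Control the count was also 0 of 9, with 0 at an unadjusted p under 0.05 and 0.186% of all genes called. Fos read 7.38, 7.24 and 7.53 against 7.13, 7.26 and 7.32, and Jun 7.75, 7.70 and 7.88 against 7.72, 7.71 and 7.67. Both genes overlapped between the groups, with 95% intervals of the log2 difference of -0.50 to 0.80 in Fos and -0.55 to 0.71 in Jun. The intervals use the spread shared over all groups, whereas the 3 arrays of brain HCD+Gl-2 had an SD of 0.14 in Fos and 0.09 in Jun. No brain HCD+Gl-2 array set stood above the other 12 brain arrays in any member, against 0.616% of all genes.

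The responses of the tissues were then tested against each other in the same fit. The kidney response to HCD+Gl-2 exceeded that of brain in 6 of 9 members, beside 0.326% of all genes, with differences between the log2 responses of 2.54 ± 0.45 in Fos, 2.03 ± 0.44 in Jun, 1.33 ± 0.20 in Fosb, 1.22 ± 0.20 in Atf3, 0.97 ± 0.18 in Junb and 0.76 ± 0.15 in Fosl2 (adjusted p between 5.62e-05 and 0.0147). The liver response exceeded that of brain in 3 of 9 (Atf3, Fosb and Junb, beside 0.276% of all genes), and this count fell to 0 when pool A of liver HCD, pool C of liver HCD+Gl-2, pool C of brain HCD or pool B of brain HCD+Gl-2 was left out. It fell to 1 without pool B or C of liver HCD, pool A of liver HCD+Gl-2, pool A of brain HCD or pool A of brain HCD+Gl-2, and rose to 5 without pool B of liver HCD+Gl-2. In Fos the difference of 1.73 between liver and brain had an adjusted p of 0.0624. Between liver and kidney 0 of 9 members differed by limma, 1 (Fosb) had an unadjusted p under 0.05, and 0.326% of all genes were called. The interval for Fos, liver minus kidney, ran from -1.73 to 0.10. Without pool C of liver HCD+Gl-2, Fos was called lower in the liver response.

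No member was called with the other diets. The cholesterol diet alone against Control gave 0 called members in liver (0 at an unadjusted p under 0.05, 0.245% of all genes called), 0 in kidney (1 at an unadjusted p under 0.05, 0.0408%) and 0 in brain (2, 0.0317%). With HCD+Gl-1 against HCD the count was 0 in liver (0 at an unadjusted p under 0.05, 0.163%), 0 in kidney (1, 0.131%) and 0 in brain (1, 0.00906%). HCD+Gl-2 against HCD+Gl-1 in brain also gave 0 (1 at an unadjusted p under 0.05, 0.00906%). HCD+Sim against HCD gave 0 in kidney (0 at an unadjusted p under 0.05, 0.14%) and 0 in brain (2, beside 0% of all genes).

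Liver HCD+Sim was the group closest to a call among these. Against HCD, 0 of 9 members were called by limma beside 0.258% of all genes, 4 had an unadjusted p under 0.05, and in 5 the 3 HCD+Sim arrays lay above the 3 HCD arrays, as they did in 9.26% of all genes. Atf3 read 7.18, 7.06 and 6.84 with HCD+Sim against 6.48, 6.52 and 6.52, a log2 difference of 0.52 ± 0.14 (adjusted p = 0.0583). Jun read 7.86, 7.97 and 7.47 against 7.25, 7.39 and 7.22, a log2 difference of 0.48 (95% interval -0.16 to 1.11, adjusted p = 0.601). Its interval uses the spread shared over all groups, which for Jun was widest in liver HCD+Gl-2 (SD 1.46). Junb read 7.59, 7.51 and 7.49 against 7.15, 7.35 and 7.20, a log2 difference of 0.30 ± 0.13 (adjusted p = 0.327). Fos overlapped, with 6.68, 6.60 and 6.70 against 6.26, 6.78 and 6.12. The comparisons of HCD+Sim and of HCD+Gl-2 share the HCD arrays. In the same comparison, 6 of 6 exocrine pancreas markers and 3 of 6 skeletal muscle markers were called higher. The summed log2 level of the pancreas markers was 10.87, 11.45 and 9.17 in the HCD+Sim pools against 8.92 to 9.07 with HCD, and that of the muscle markers 10.35, 10.88 and 9.37 against 9.27 to 9.54. The part of such tissue in the values of the members was not tested. Against Control, liver HCD+Sim also had 0 of 9 members called by limma, where 79 of 22080 genes were called. There 5 members had an unadjusted p under 0.05, and in 6 the HCD+Sim arrays lay all above Control, as in 8.20% of all genes. The largest log2 difference of a member was 0.77 and the smallest adjusted p 0.0227, but no member met both limits of the call.

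Brain Fosb was the member with the largest difference between HCD and Control in that tissue. It read 7.74, 7.78 and 7.65 in the HCD pools and 7.20, 7.18 and 7.65 in the Control pools, a log2 difference of 0.38 ± 0.14 with an adjusted p of 0.559. The Control array that overlapped was pool C, which stood apart in its striatum and olfactory bulb markers. Without it the log2 difference was 0.53 with an adjusted p of 0.0299, still under the fold threshold, and the part of the dissected region in this value was not tested.

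Genes around AP-1 were counted from lists of other leucine zipper partners, upstream kinases, AP-1 targets, other immediate early genes and heat shock genes. None of 12 partner genes was called with HCD+Gl-2 against HCD in any tissue by limma, with median log2 differences of 0.02 in liver and 0.12 in kidney. None of 15 kinases and serum response factors, among them the ERK and JNK genes and Srf, was called in any tissue against HCD, with median log2 differences of -0.04 in liver and -0.02 in kidney.

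Of 17 known AP-1 targets, 1 rose in kidney and none was called in brain with HCD+Gl-2 against HCD, and the median log2 difference was 0.06 in liver and 0.10 in kidney. The kidney gene was Hbegf, an epidermal growth factor receptor ligand, at 9.19, 8.58 and 9.34 against 7.76, 7.64 and 7.80 (2.47-fold, adjusted p = 2.64e-09). The Hbegf response differed between liver and kidney by a log2 value of -1.04 ± 0.18 (adjusted p = 0.000652).

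Of 21 other immediate early genes, 14 rose in kidney and 5 in liver with HCD+Gl-2 against HCD, with median log2 differences of 1.44 and 0.27. The shares of all genes called in these comparisons were 0.335% and 0.303%. The 5 of liver were Egr1, Egr2, Nr4a1, Ier2 and Btg2. In kidney Egr1 rose by a log2 difference of 3.97 ± 0.48 (15.7-fold, adjusted p = 3.54e-07), Nr4a1, an orphan nuclear receptor, by 3.47 ± 0.28 and Cyr61, a matricellular protein, by 2.68 ± 0.26. Dusp1 and Zfp36, which encode a phosphatase of MAP kinases and an RNA-binding protein that destabilises AU-rich transcripts, were also called in kidney, with log2 differences of 1.61 and 1.80. Of 5 heat shock genes, 4 rose in liver and 3 in kidney, Hspa1a by 1.02 and 1.32. Liver pool B did not share these rises in the 4 genes plotted by pool. It stood at -0.17 in Egr1, -0.12 in Nr4a1, 0.02 in Hspa1a and 0.12 in Dnajb1 from the HCD mean. The alternative fits were read for the 9 members and not for the genes of these lists. In brain none of the 21 and none of the 5 was called. The marker lists of neutrophils and macrophages, 6 genes each, had no called gene in liver or kidney with HCD+Gl-2 against HCD, and in liver their summed log2 levels were 8.13 to 8.31 and 10.95 to 10.99 with HCD and 8.28 to 8.46 and 10.90 to 11.18 with HCD+Gl-2. In kidney they were 8.00 to 8.04 and 9.49 to 9.55 with HCD and 8.02 to 8.11 and 9.48 to 9.55 with HCD+Gl-2. Of these markers only Csf1r, at 8.80 to 8.99, lay above the array medians of 6.76 to 6.92 in kidney. The other macrophage markers there reached at most 6.66 and the neutrophil markers at most 6.57, so the kidney sums say little about the number of such cells.

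Within each tissue, the genes whose pattern over 15 arrays was most like that of Fos were Egr2, Dusp6, Dnajb1, Hspa1b and Snord14d in liver (Pearson r from 0.964 to 0.978) and Nr4a1, Ier2, Btg2, Nr4a2 and Egr1 in kidney (0.981 to 0.991). For Jun they included Cyr61, Btg2, Zfp36 and Egr1 in liver (0.961 to 0.975) and Nr4a1, Egr1, Cyr61, Dnajb4 and Ier2 in kidney (0.975 to 0.981). All of these r share the same HCD+Gl-2 arrays. In brain the 5 genes most like Fos were Usp32, Cab39, Gzf1, Mtdh and Dpp8 (0.901 to 0.914), the 5 most like Jun had r from 0.812 to 0.883, and Fos and Jun themselves had an r of 0.412, against 0.963 in liver and 0.975 in kidney.

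After each group mean was removed, Fos and Jun still varied together between pools, with a Pearson r of 0.891 over 45 arrays, and the median over the 36 pairs of members was 0.375. Without the liver HCD+Gl-2 group, over 42 arrays, the r of Fos with Jun was 0.444 and the median over the pairs 0.297. The r of Fos with Fosb was then 0.269 in place of 0.661, and that of Fos with Atf3 0.333 in place of 0.608. The r of Fosl1 with the other members was between -0.05 and 0.23 over all arrays and between 0.19 and 0.37 without that group, and its r with Fos went from -0.04 to 0.30. The lowest r without that group was -0.30, between Atf3 and Maff. These r are descriptions, since arrays of a group share animals through pool C.

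**Figure D4:**
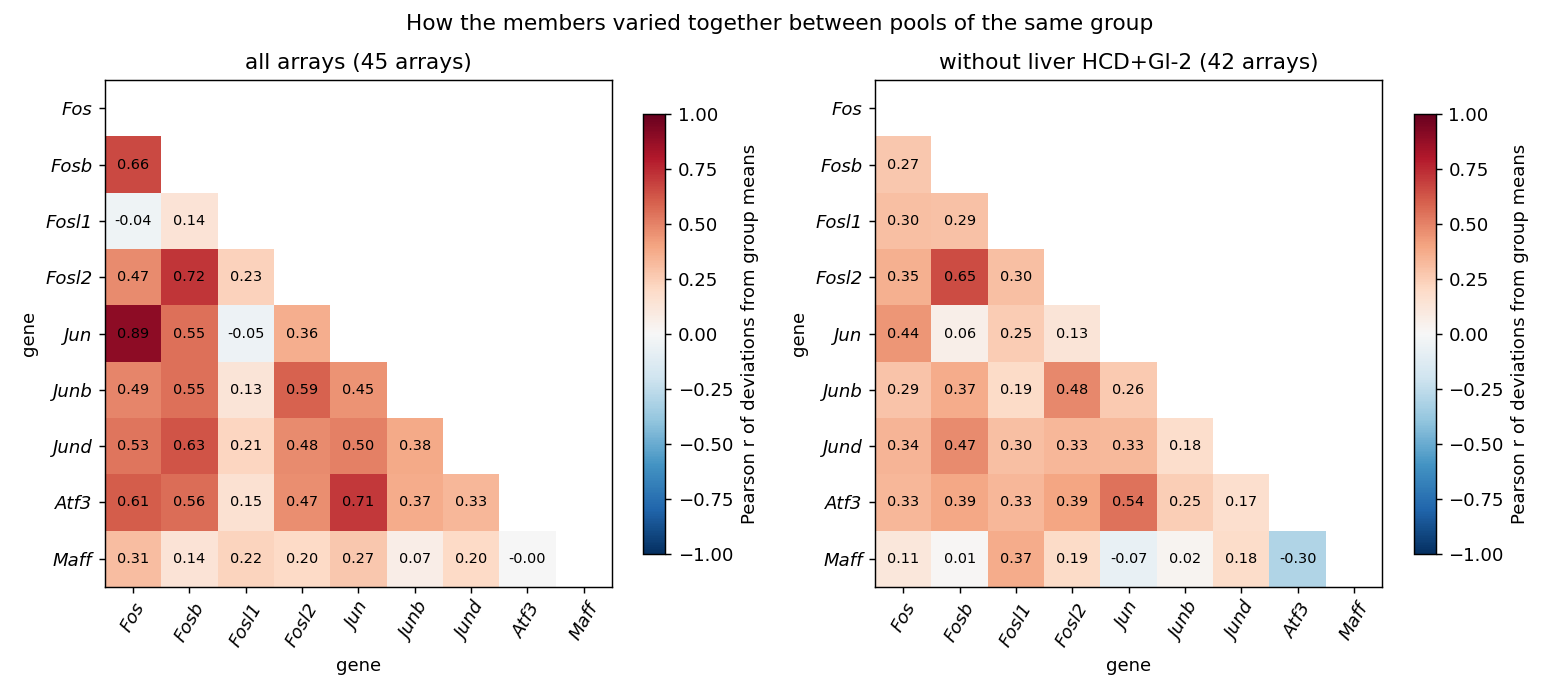
Pearson r between each pair of the 9 genes after subtraction of the group means, over all 45 arrays (left) and over the 42 arrays without liver HCD+Gl-2 (right), where rows and columns are genes and colour gives r from -1 to 1. The r of Fos and Jun is 0.891 on the left, and the pairs with Fosl1 lie between -0.05 and 0.23 there.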

How the data were processed

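Tissue, diet and pool letter of the 45 arrays came from the sample labels. The authors corrected intensities by RMA, quantile normalized them with oligo, removed batch effects by ComBat and, where a gene had several probe sets, retained the one of largest interquartile range; the deposited values are on the log2 scale. Array levels are thus relative. Sequences and coordinates are RefSeq's, build GRCm38.p6, and the authors' own build is not given in the sources used here. A call needed an adjusted p no higher than 0.05 together with an absolute log2 difference above 0.7. The batches are not named in the sources used here, and an adjustment that spans groups can shrink or shift differences. From these values limma 3.58.1 in R 4.3.3 was fitted once, with 15 group means over 45 arrays (residual degrees of freedom 30, prior 7.34), and adjusted by Benjamini-Hochberg over 22080 genes within each contrast. The fit was tested on simulated arrays drawn independently with the spread of kidney HCD. That test does not cover arrays that share animals or groups of unequal spread. The spread is shared over groups, so a tissue with little spread borrows from one with much. With 3 arrays a group, an exact permutation test cannot reach p = 0.05. Pathway and marker lists and the genes were chosen with earlier results of these data known, and support nothing by themselves. Named genes were the 9 members, list genes called in a described comparison, and the 5 genes most correlated with Fos and with Jun; some list genes are not reported here. Figures used matplotlib 3.10.9 in Python 3.11.15. The number of pools and arrays limits the precision. Alternatives were the arrays in the fit, pools A and B alone, a replicate block by pool letter, removal of the dimmest 25% of genes, another quantile step, trended robust moderation, no fold threshold and each array left out.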

Additional observations from a re-analysis of the deposited data

Results flagged for a closer look

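The response to HCD+Gl-2 (against HCD) differed between tissues by an interaction contrast of the limma fit in 9 cases. The fit treated the arrays of the tissues as separate. Kidney minus brain, the log2 differences were 2.54 in Fos, 2.03 in Jun, 1.33 in Fosb, 1.22 in Atf3, 0.97 in Junb and 0.76 in Fosl2. Liver minus brain, they were 0.83 in Fosb, 0.81 in Junb and 0.85 in Atf3. The brain response itself, HCD+Gl-2 minus HCD, was -0.26 in Fosb, with no call, and between -0.14 and 0.15 in the 5 others. In liver the Fosb difference of 0.58 was not called on its own. The causes were not tested.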

How the results depend on the processing

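In kidney, HCD+Gl-2 against HCD called 5 members, 5 to 6 with an array left out, 7 without the fold threshold and the same 5 under each other setting. In liver, HCD+Gl-2 against HCD called 4 members but 2 when only liver arrays were fitted, 0 on the compared groups alone and 1 on pools A and B alone, and 2 to 5 with an array left out. Against HCD+Gl-1 it called 0 in each of these 3 fits, 3 to 5 with an array left out and 7 without the fold threshold; against Control it called 1 on the compared groups alone and 3 to 5 with an array left out. With an array left out, the liver minus brain difference called 0 to 5 members, and the liver minus kidney difference 0 to 1. On the Control diet, liver against brain called 0 to 2 and kidney against brain 1 to 2 with an array left out, the latter 1 on pools A and B alone. No called difference reversed: of 523 alternative values of the 40 called differences, 457 stayed called and 66 did not. All-gene counts for HCD+Gl-2 against HCD in liver were 67, against 375 without the fold threshold, 17 with only liver arrays fitted, 8 on the compared groups alone and 42 on pools A and B, and in kidney 74 against 220 without the fold threshold. The pool letter as a replicate block left 4 members called in liver and 5 in kidney and changed no other diet count. Within a tissue, arrays of the same letter in different diets did not deviate together throughout (median correlation of their deviations from -0.04 to 0.14 by tissue and letter). In liver pool A, however, all 10 pairs of diets correlated positively, from 0.05 to 0.22, and 6 were over 0.1. The letters were not taken to pair the diets of a tissue in the main fit. Those arrays hold different mice, so the check could not show whether a letter stands for the same mice in the 3 tissues. The fit did not pair the tissues. The cause of these changes was not tested.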
